A study of Mus musculus with 4 samples.

Results

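Otx1, Otx2, Gsc, Six2 and Vmo1 were followed as 5 genes of the ventral otic vesicle, matched by symbol among the 32285 genes of each of 4 single-cell libraries of mouse embryonic otic tissue. The conditional knockout embryos (cKO, 2 libraries) carried Pax2-Cre and the reporter allele Rosa26-GFPf/+, and were homozygous for floxed alleles of the T-box transcription factor genes Tbx2 (Tbx2f/f) and Tbx3 (Tbx3f/f), so that Cre driven by Pax2 regulatory sequence deletes both genes in the early ear lineage. Control embryos (2 libraries) carried the same Pax2-Cre and Rosa26-GFPf/+ without the floxed alleles. All embryos were Swiss-Webster at E10.5, staged at 34 to 36 somites, and dissected vesicles with the cochleovestibular ganglion and neighbouring tissue were pooled, and cells positive for GFP and negative for DAPI were sorted for 3′ droplet sequencing. The labels name 2 cKO and 3 control embryos but not how they were divided among libraries, so p-values reflect how far these libraries spread, in part perhaps technically.

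The otic vesicle is a closed epithelial sac from which the cochlea, the vestibular organs and their neurons arise. Signals from the hindbrain and notochord, Sonic hedgehog from the ventral midline and Wnt from the dorsal side, pattern it along the dorsoventral axis. Otx1 and Otx2 encode homeodomain proteins related to Drosophila orthodenticle, known from forebrain development, and Otx1 is required in the mouse for the lateral semicircular canal. Gsc, goosecoid, encodes a homeodomain protein of the same DNA-binding type, known from the gastrula organizer and craniofacial development. Six2 is a sine oculis family homeobox gene known for maintaining kidney progenitors. Vmo1 encodes a secreted protein named after the vitelline membrane outer layer of the bird egg and is the only member that is not a transcription factor. The cells were dissociated, so a ventral position was not measured and rests on what is known of these genes.

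In mm10, Otx1 (ENSMUSG00000005917) lies on chromosome 11 from 21994764 to 22002897, and Vmo1 (ENSMUSG00000020830) lies on the same chromosome from 70513516 to 70514616. Otx2 (ENSMUSG00000021848) lies on chromosome 14 from 48657677 to 48673819. Gsc (ENSMUSG00000021095) lies on chromosome 12 from 104471209 to 104473330, and Six2 (ENSMUSG00000024134) on chromosome 17 from 85684277 to 85688274. All 5 are protein-coding genes on the minus strand, and each count is the whole gene's. Otx2os1, a transcript on the opposite strand, overlaps Otx2, but otic cells held 0 and 1 UMIs of it in cKO 1 and 2, against 7 and 5 in control 1 and 2. Gm49154 overlaps Otx2 on its own strand and was not analysed here.

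The libraries held 106769747 and 124986694 UMIs (unique molecular identifiers, each counting 1 captured transcript) in cKO 1 and 2, and 128205192 and 111724972 in control 1 and 2. After filtering, 14399 cells were kept, of which 7326 were otic epithelium-like by marker genes, a name that rests on markers such as Pax2, Lmx1a, Hmx3, Dlx5 and Oc90. Otic cells numbered 1159 and 2054 in cKO 1 and 2, and 2222 and 1891 in control 1 and 2. Clusters were formed without the 5 genes, so that these did not decide which cells were otic. The summed level of the 12 otic markers was 447 and 470 CPM (UMIs scaled relative to the library's otic total) in cKO 1 and 2, against 1039 and 1251 CPM in control 1 and 2. Mitochondrial UMIs took a median of 1.21% and 1.28% per otic cell in the cKO libraries, against 2.30% and 2.88% in the control libraries, and the part of this difference in the results was not tested. Libraries shared between 2 and 8 cell barcodes.

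As a check of the labels, Tbx3 was at 23.7 and 18.7 normalised CPM in cKO otic cells, against 60.9 and 56.6 in control otic cells. It fell by 1.48 on the log2 scale (SE 0.11, adjusted p = 6.55e-05, edgeR's quasi-likelihood test with Benjamini-Hochberg adjustment). Tbx2 was at 73.9 and 71.0 normalised CPM in cKO, against 88.2 and 94.6 in control, and fell by 0.34 (SE 0.07, adjusted p = 0.00641). The labels do not say which exons are flanked by loxP sites, and 3′ counts outside a deleted part would not check the deletion.

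In otic cells, Otx1, Otx2, Gsc and Vmo1 were nearly lost from the cKO libraries, while Six2 fell less and was still found in many cells. All 5 genes were called lower at an adjusted p under 0.05 in edgeR's quasi-likelihood test on counts summed per library, in a comparison in which 19.6% of the 15424 genes tested fell and 20.9% rose. The levels below are normalised CPM, scaled with TMM factors, and fold changes are log2 of cKO over control. Gsc and Vmo1 passed the filter on low counts through their control libraries, since their cKO counts were all under 10. In these sums, fewer cells that express a gene and less RNA per cell cannot be told apart.

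Otx1 stood at 2.43 and 1.75 normalised CPM in cKO 1 and 2, against 28.2 and 29.1 in control 1 and 2. The groups lay more than 10 times apart, and the control libraries differed little. It averaged 2.09 ± 0.479 in cKO and 28.7 ± 0.665 in control (SD, n = 2 each), a log2 change of -3.81 (SE 0.13, adjusted p = 3.80e-06, edgeR).

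Otx2 stood at 1.28 and 0.949 normalised CPM in cKO 1 and 2, against 15.2 and 19.9 in control 1 and 2. Each cKO library lay far below each control library, as for Otx1. The averages were 1.11 ± 0.231 in cKO and 17.5 ± 3.36 in control (SD, n = 2 each), and the log2 change was -4.00 (SE 0.19, adjusted p = 9.10e-06, edgeR).

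Gsc was almost absent from cKO otic cells, with 1 and 7 UMIs in cKO 1 and 2 among all of their otic cells, against 493 and 583 UMIs in control 1 and 2. Its levels were 0.0245 and 0.102 normalised CPM in cKO, against 6.42 and 9.29 in control. The fitted log2 change was -6.46 (SE 0.36, adjusted p = 1.50e-05, edgeR), a size that depends on the prior count at these low numbers. Pooled over the libraries of a genotype, the ratio of cKO to control was 0.00848, with an exact 95% interval of 0.00365 to 0.0168 that covers counting error only.

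Vmo1 behaved likewise, with 2 and 5 UMIs in cKO 1 and 2, against 242 and 292 in control 1 and 2. Its levels were 0.0491 and 0.0730 normalised CPM in cKO, against 3.15 and 4.65 in control. The fitted log2 change was -5.61 (SE 0.36, adjusted p = 3.12e-05, edgeR). The pooled ratio of cKO to control was 0.0150, with an exact 95% interval of 0.00598 to 0.0310 for counting error.

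Six2 differed in degree. It stood at 18.1 and 13.3 normalised CPM in cKO 1 and 2, against 23.6 and 33.0 in control 1 and 2, so the groups did not overlap but the higher cKO library and the lower control library lay close together. It averaged 15.7 ± 3.42 in cKO and 28.3 ± 6.63 in control (SD, n = 2 each), a log2 change of -0.86 (SE 0.18, adjusted p = 0.00619, edgeR).

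**Figure D1:**
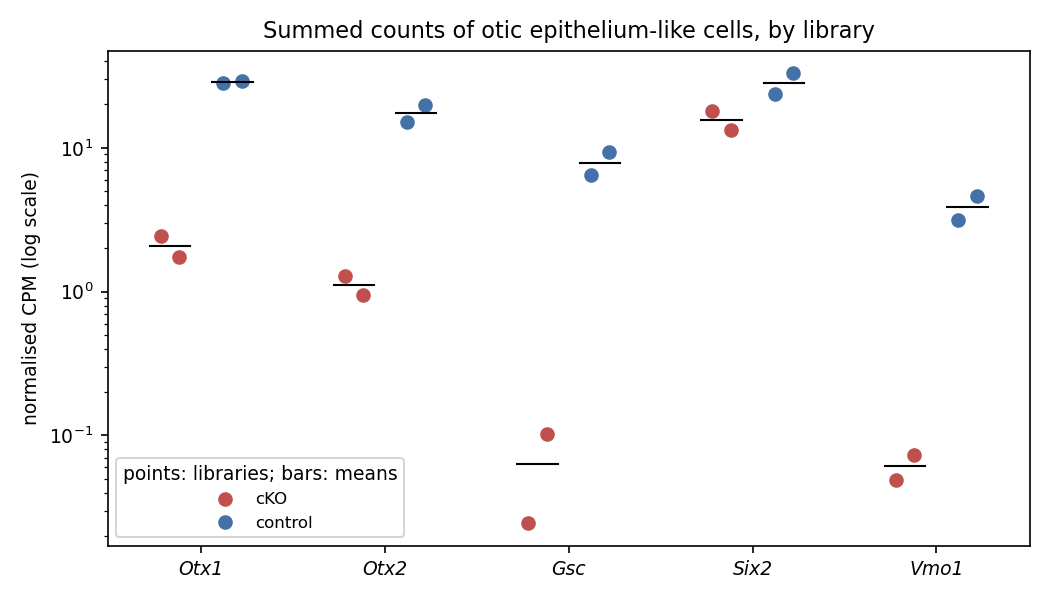
Normalised CPM (log scale) of each gene in summed otic epithelium-like cells, with cKO libraries in red, control libraries in blue and bars at the mean of 2 libraries. Six2 at 18.1 and 13.3 in cKO lies near its control values of 23.6 and 33.0, while Gsc and Vmo1 in cKO lie at or under 0.102.

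All 5 members were also called lower over all kept cells, with no cell naming involved, where 12.2% of 17321 genes tested fell. Otic cells made up 35.99% and 55.32% of kept cells in cKO 1 and 2, against 57.43% and 52.57% in control 1 and 2. Levels over all kept cells thus mix the otic share with the level within otic cells, and the part of each was not tested. Otx1 was at 1.35 and 1.33 normalised CPM in cKO, against 17.7 and 17.1 in control (log2 -3.69, SE 0.10, adjusted p = 0.00108, edgeR). Otx2 was at 2.97 and 1.61 in cKO, against 11.03 and 14.4 in control, a log2 change of -2.48 (SE 0.30, adjusted p = 0.0101, edgeR), smaller than in otic cells alone. Six2 was at 10.4 and 10.1 in cKO, against 16.3 and 20.7 in control (log2 -0.85, SE 0.13, adjusted p = 0.0131, edgeR). Without control 2 the Six2 change over all kept cells was -0.67 with an adjusted p of 0.0533 (edgeR), so that call rested on control 2.

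The share of otic cells with at least 1 UMI was compared after thinning each cell to 10000 UMIs, which left out 65, 74, 43 and 64 shallower otic cells of cKO 1, cKO 2, control 1 and control 2. Otx1 was then found in 2.19% and 1.31% of otic cells in cKO 1 and 2, against 14.0% and 15.7% in control 1 and 2. Otx2 was found in 0.548% and 0.657% of cKO otic cells, against 7.53% and 8.10% of control otic cells. Each of these shares was at least several times lower in either cKO library than in either control library.

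Gsc was found in 0 of 1094 and 0.101% of 1980 thinned otic cells in cKO 1 and 2, against 4.64% and 6.02% in control 1 and 2. A count of 0 in 1094 cells allows a share of up to 0.274%. Vmo1 was found in none of the thinned cKO otic cells, which allows shares of up to 0.274% and 0.152% in cKO 1 and 2, against 2.75% and 3.17% of the control ones. Six2 was found in 13.5% and 10.3% of cKO otic cells, against 15.7% and 19.0% of control otic cells. The Six2 shares in cKO 1 and control 1 thus lay close together, with exact binomial 95% intervals of 11.6% to 15.7% and 14.2% to 17.3% that cover counting error only.

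Without thinning, the shares were higher throughout: Otx1 was found in 5.35% and 3.31% of cKO otic cells, against 19.4% and 21.2% of control otic cells. Six2 was found in 30.4% and 22.5% of cKO otic cells, against 29.0% and 31.8% of control otic cells, so for Six2 the unthinned shares overlapped between genotypes. The median depth of otic cells was 36878 and 33890 UMIs in the cKO libraries, against 31255 and 29678 in the control libraries. Cells with Otx1 held 1.60 and 1.76 Otx1 UMIs each in cKO 1 and 2, against 5.03 and 4.56 in control 1 and 2. Cells with Otx2 held 2.89 and 2.32 Otx2 UMIs each in cKO, against 5.17 and 6.13 in control. Leukocyte-like cells, which should lack all 5 genes, held 0 or 1 UMI of each member per library among 54 and 55 cells in cKO and 49 and 40 in control, at a median of 42774 UMIs per cell. With so few leukocyte-like cells, 0 in the smallest set of 40 allows a share of up to 7.50%. Larger sets bounded the background more closely for Otx1. It was found in 0 of 233 epibranchial neuron-like cells of cKO 1 (median 30921 UMIs per cell), which allows up to 1.29%, and in 0.562% of 356 such cells of cKO 2 (median 28144). In placodal neuron-like cells it was found in 1.65% of 303 and 0 of 364 cells of cKO 1 and 2 (medians of 35505 and 32134.5 UMIs). The unthinned otic shares of 5.35% and 3.31% in cKO 1 and 2 lay above all of these. For Otx2 the unthinned otic shares were 1.55% and 1.36%, against 0 (up to 1.29%) and 0.281% in the same epibranchial cells.

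Control otic cells carried these genes together. In the following, co-detection means that UMIs of both genes were found in the same cell thinned to 10000 UMIs, and the ratio sets the observed number of such cells against the number that independent detection would give. Cells of a library are not replicates, so the 2 control libraries are given side by side without a test. All 10 pairs had ratios above 2 in both control libraries. How many other gene pairs exceed 2 was not computed, and Wnt4, which is not a member, also lay above it with Otx1 and with Otx2.

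Otx2 and Vmo1 were the pair with the highest ratio, at 8.19 in control 1 and 7.88 in control 2. Otx2 and Gsc followed at 7.50 and 6.96, and Gsc and Vmo1 stood at 6.83 and 6.87. The ratios of Otx1 were 5.05 and 4.58 with Otx2, 5.87 and 4.65 with Gsc, and 5.72 and 5.07 with Vmo1. Pairs with Six2, the most widely detected member, were lower and ranged from 2.77 for Otx1 in control 2 to 4.18 for Otx2 in control 1. The highest pair depended on depth. At 5000 UMIs per cell Otx2 and Gsc came first, at 8.80 and 9.12, against 7.77 and 7.40 for Otx2 and Vmo1. Without thinning Otx2 and Vmo1 were again highest, at 7.27 and 7.46.

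The shares were unequal in the 2 directions. Otx1 was found in 82.2% and 72.7% of Gsc-positive cells of control 1 and 2. It was also found in 70.7% and 71.6% of Otx2-positive cells and in 80.0% and 79.3% of Vmo1-positive cells. By contrast, 38.0% and 37.1% of Otx1-positive cells had Otx2. Most cells with Otx2, Gsc or Vmo1 thus had Otx1, while each of these 3 genes was found in at most 38.0% of cells with Otx1. At a fixed depth a gene of lower level is missed in more cells, which bears on these shares.

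**Figure D2:**
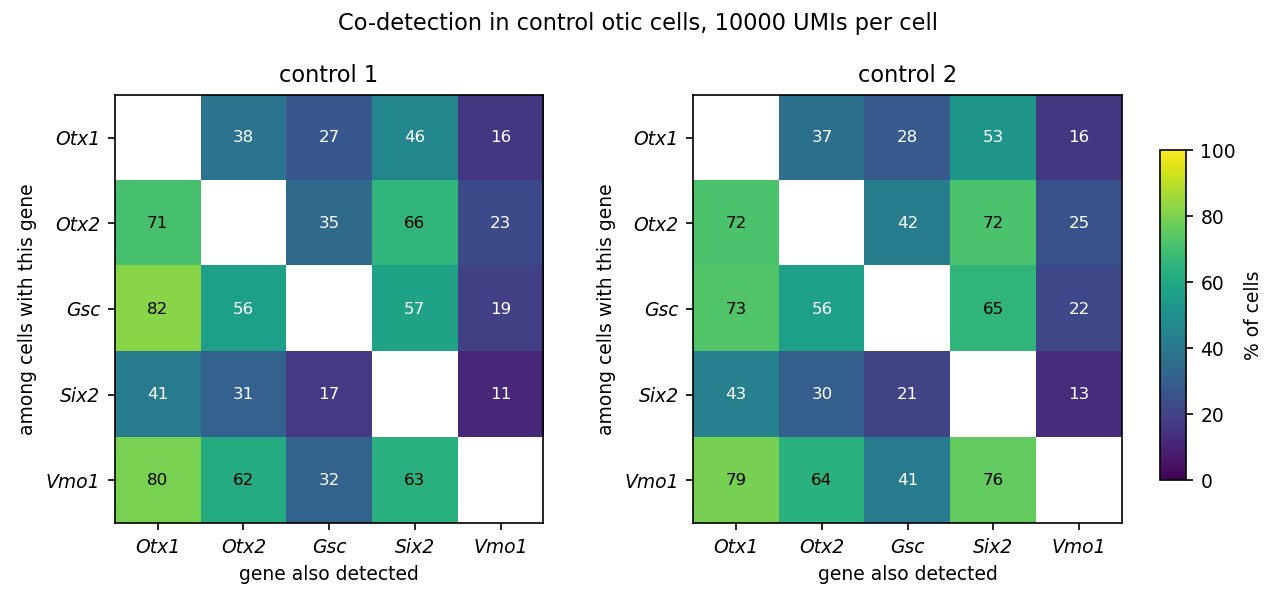
Percentage of control otic cells with the row gene that also had the column gene, after thinning to 10000 UMIs per cell, for each control library. The Otx1 column is high for Otx2, Gsc and Vmo1 rows (70.7% to 82.2%), while the Vmo1 column is low.

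At least 4 of the 5 genes were found together in 55 of 2179 thinned otic cells of control 1 and in 57 of 1827 of control 2. All 5 were found in 7 and 12 cells, where independent detection would give 0.00461 and 0.00843 cells. In cKO 1 no thinned otic cell had more than 2 of the genes, and in cKO 2 the highest number was 3, in 2 of 1980 cells. Without thinning, at least 4 were found in 0 of 1159 and 2 of 2054 otic cells of cKO 1 and 2. The unthinned control counts were 160 of 2222 and 150 of 1891. Of the rare thinned cKO cells with Otx1, 13 of 24 in cKO 1 and 10 of 26 in cKO 2 also had Six2. These are ratios of 4.00 and 3.73 to independent detection, against 2.92 and 2.77 in control 1 and 2. At 5000 UMIs per cell the ratios were 2.00 and 8.52 in cKO, against 3.08 and 2.72 in control. Without thinning they were 2.50 and 2.67 in cKO, against 2.42 and 2.26 in control. The order of cKO 1 and the controls thus depended on depth.

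**Figure D3:**
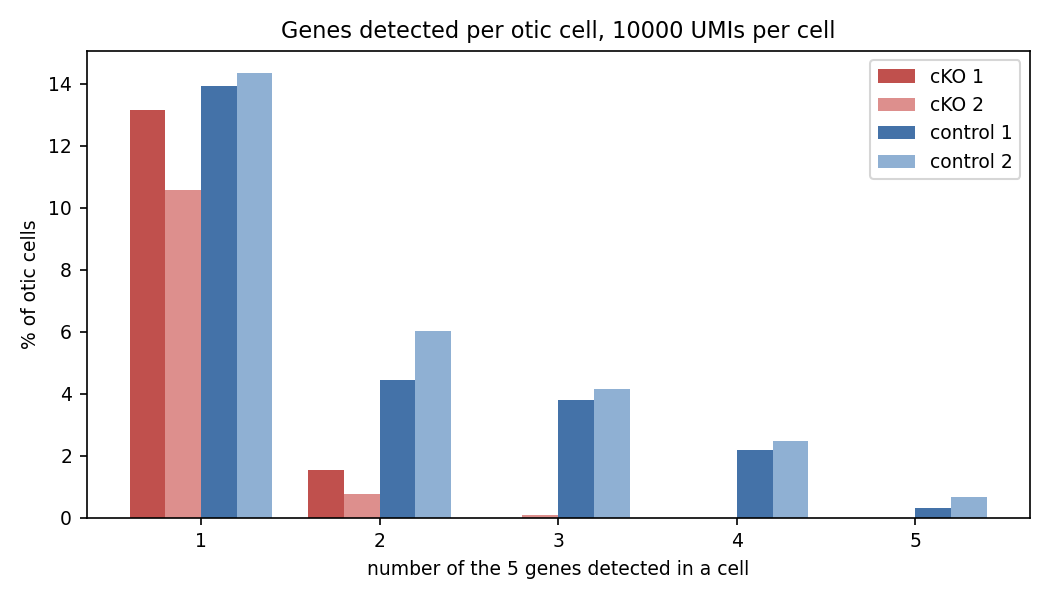
Percentage of otic cells (thinned to 10000 UMIs) in which 1 to 5 of the genes were detected, with cKO libraries in red shades and control libraries in blue shades. At this depth, cells with 4 or 5 genes appear in the control libraries alone, 55 of 2179 and 57 of 1827 cells.

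Within control otic cells, genes of the dorsal otic list differed in how often they were found with Otx1. Gbx2, a homeobox gene of the dorsal otic vesicle, was found with Otx1 in 3 and 1 cells of control 1 and 2, ratios of 0.0539 and 0.0195 to independent detection. It was found with Otx2 in 0 cells of either control library, although 398 and 327 otic cells had Gbx2. Msx2, a target of bone morphogenetic protein signalling, was found with Otx1 at ratios of 0.0885 and 0.0503. The LIM homeobox gene Lmx1a, at 1.16 and 1.07, and the homeobox gene Hmx3, at 0.957 and 1.09, were near independence with Otx1. The homeobox gene Dlx5 lay between, at 0.558 and 0.600. Fgf10 and Lfng, genes of the neurosensory domain, were also found with Otx1 less often than independent detection would give, at 0.179 and 0.482 for Fgf10 and 0.362 and 0.413 for Lfng. Wnt4, a secreted Wnt ligand, went the other way, at 3.60 and 3.52 with Otx1 and 4.75 and 5.37 with Otx2. Tbx1, another T-box gene of the otic vesicle, stood at 2.02 and 1.80 with Otx1.

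Transcripts of the targeted genes were found in control otic cells with and without the members. Tbx3 was found in 38.4% and 40.6% of Otx1-positive thinned otic cells of control 1 and 2, and in 36.4% and 36.2% of Otx1-negative ones. It was found in 27.4% and 23.0% of Otx2-positive cells, and in 37.4% and 38.1% of Otx2-negative ones. Tbx2 was found in 50.0% and 54.1% of Otx2-positive cells and in 55.9% and 59.3% of Otx2-negative ones.

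Among the otic clusters of the control libraries, the members peaked together in cluster 22. There Otx1 stood at 182 and 161 CPM per total UMI in control 1 and 2, Otx2 at 93.1 and 142, Gsc at 47.4 and 55.9, Six2 at 104 and 158, and Vmo1 at 21.8 and 36.8. Cluster 5 was next, with Otx1 at 90.5 and 70.1 CPM and Otx2 at 63.6 and 53.0 CPM. These clusters made up 425 and 492 control otic cells, or 19.1% and 26.0%.

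Cluster 5 and cluster 22 were picked because members were among their leading genes, so high shares of member UMIs there follow in part from that choice. Cluster 5 and cluster 22 held 81.1% and 80.9% of all Otx1 UMIs of control 1 and 2 otic cells, 89.7% and 97.0% of Otx2 UMIs and 92.3% and 97.8% of Gsc UMIs. They held 88.8% and 93.2% of Vmo1 UMIs but 57.9% and 61.2% of Six2 UMIs. Outside them, control otic cells had Six2 at 12.8 and 18.5 CPM per total UMI. Six2 was thus the member with the widest spread over control otic clusters, with 22.6 and 34.4 CPM in cluster 9, which had Otx1 at 1.42 and 0.754 CPM. In all otic cells of cKO 1 and 2, Six2 stood at 17.0 and 12.6 CPM per total UMI. These values overlapped the 12.8 and 18.5 of control otic cells outside clusters 5 and 22, a comparison that was not tested. Of the cKO otic cells, 0 of 3213 lay in clusters 5 and 22.

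Otx1 and Otx2 parted company in cluster 6, led by Aldh1a2, a retinoic acid synthesis enzyme, and Oc90, an otoconial protein. Otx1 stood there at 21.2 and 30.8 CPM, whereas Otx2 stood at 0.612 and 1.03 CPM. Cluster 6 also had Tbx3 at 145 and 127 CPM, against 66.4 and 52.7 CPM in cluster 22. Cluster 12, also led by Aldh1a2, shared these traits, with Otx1 at 6.90 and 13.1 CPM and Otx2 at 0.0933 and 0 CPM. Tbx3 stood at 135 and 139 CPM in cluster 12 of control 1 and 2. In cluster 13 no member exceeded 1.44 CPM in either control library. In the cKO libraries, Six2 stood at 21.0 and 13.6 CPM in cluster 1 and at 13.8 and 13.2 in cluster 2, and at 1.02 and 0.230 in cluster 23. Otx1 was at or under 2.95 CPM in each of these clusters.

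**Figure D4:**
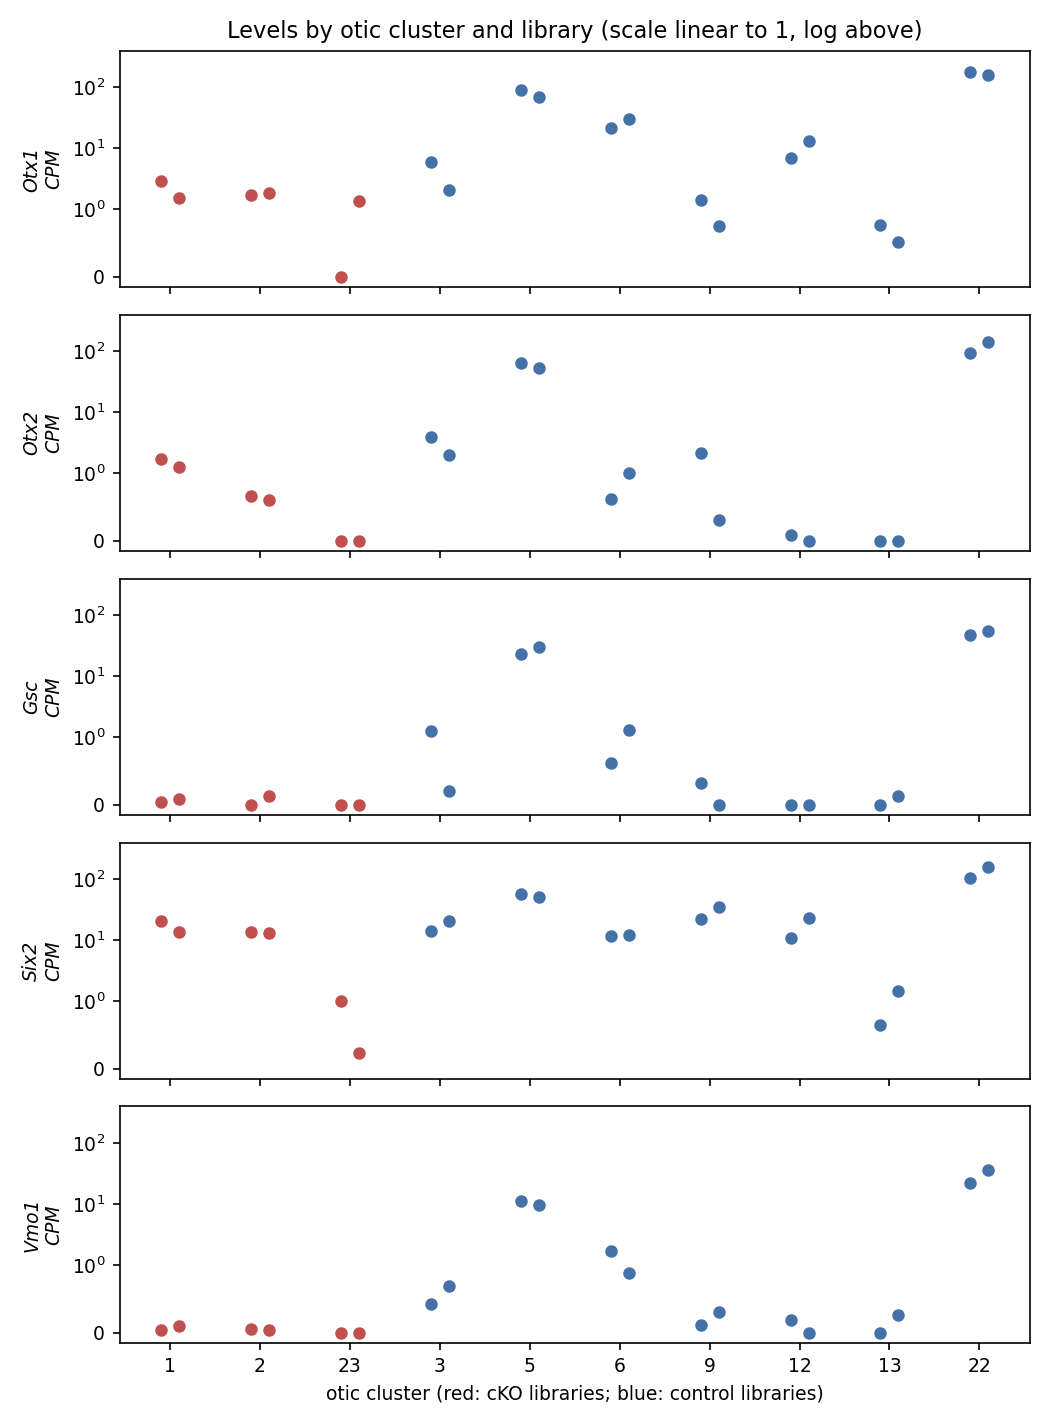
CPM per total UMI of each gene in otic clusters with at least 20 cells in a library, with points for libraries (cKO in red on the left, control in blue on the right) on a scale that is linear up to 1 and logarithmic above. All 5 genes are highest in clusters 5 and 22, while Otx1 also reaches 21.2 and 30.8 in cluster 6.

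No otic cluster held at least 20 cells in every library, so the genes could not be compared between genotypes within a cluster. The otic cells of the cKO libraries lay mostly in clusters 1 and 2 and those of the control libraries in clusters 3, 5, 6, 9, 12, 13 and 22. The clusters were formed on genes that themselves differ by genotype, so their sizes are not compared.

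Likeness of log-normalised expression over control otic cells was screened among 13023 genes detected in at least 2% of control otic cells. Each member had other members among its 5 nearest genes, but not all were mutual. Vmo1 was among the 5 nearest genes of no other member, and Gsc was not among those of Otx1. Correlations were computed within control 1 and within control 2, over 4113 cells in all, and are given as the mean. The cells were not thinned to a common depth, and the values are descriptions without a test. Otx2 was the nearest gene to Gsc (r = 0.540), Six2 (r = 0.589) and Vmo1 (r = 0.487). Capn6, a member of the calpain family, was nearest to Otx2 (r = 0.621) and was among the 5 nearest genes of all members but Vmo1.

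Ehbp1, a gene for an adaptor protein of endocytosis, was nearest to Otx1 (r = 0.709), ahead of every member. Ehbp1 lies beside Otx1 in the genome, on the same strand of chromosome 11 from 22005828 to 22342292, with 2930 bases between the genes. It stood at 7.39 and 7.53 normalised CPM in cKO otic cells, against 27.0 and 27.5 in control otic cells, a log2 change of -1.87 (SE 0.08, adjusted p = 6.09e-06, edgeR). Capn6 stood at 4.74 and 5.49 in cKO, against 24.5 and 34.5 in control (log2 -2.51, SE 0.17, adjusted p = 3.86e-05, edgeR).

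The other nearest genes did not all move as far. Crym, a gene for crystallin mu, near Six2 (r = 0.484), stood at 29.2 and 31.0 in cKO, against 37.5 and 47.4 in control (log2 -0.50, SE 0.11, adjusted p = 0.00803, edgeR). Rspo2, a secreted enhancer of Wnt signalling near Otx2 (r = 0.548), stood at 3.95 and 2.88 in cKO, against 3.94 and 5.44 in control, and its log2 value of -0.47 did not pass (SE 0.20, adjusted p = 0.0954, edgeR). Fam110b, near Otx1 (r = 0.516), had a log2 change of -0.35 (SE 0.12, adjusted p = 0.0413, edgeR).

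The windows around annotated start sites are printed for the 4 members with an entry in the RefSeq promoter table of GRCm38.p6, since these genes fell together in cKO otic cells. Each window covers 250 bases before to 50 bases after the start, on the minus strand. For Otx2 the third of 4 listed starts is shown, the only one with a match. Capital letters mark TAATCC or, read on the other strand, GGATTA, the motif bound by Otx and goosecoid homeodomains. The windows are Otx2 at chr14:48665060-48665359, Gsc at chr12:104473187-104473486, Six2 at chr17:85688205-85688504 and Vmo1 at chr11:70514567-70514866.
Otx2: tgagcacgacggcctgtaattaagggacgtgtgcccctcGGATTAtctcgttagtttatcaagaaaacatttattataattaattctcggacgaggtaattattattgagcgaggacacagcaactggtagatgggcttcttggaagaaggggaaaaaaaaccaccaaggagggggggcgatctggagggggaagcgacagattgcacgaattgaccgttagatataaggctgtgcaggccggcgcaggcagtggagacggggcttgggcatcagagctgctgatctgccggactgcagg
Gsc: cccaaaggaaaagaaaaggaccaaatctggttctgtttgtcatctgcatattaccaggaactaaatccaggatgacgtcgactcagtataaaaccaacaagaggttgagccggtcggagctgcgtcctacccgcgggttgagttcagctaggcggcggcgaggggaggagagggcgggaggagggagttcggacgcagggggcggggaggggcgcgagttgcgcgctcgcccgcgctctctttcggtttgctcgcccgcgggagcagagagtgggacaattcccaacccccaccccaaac
Six2: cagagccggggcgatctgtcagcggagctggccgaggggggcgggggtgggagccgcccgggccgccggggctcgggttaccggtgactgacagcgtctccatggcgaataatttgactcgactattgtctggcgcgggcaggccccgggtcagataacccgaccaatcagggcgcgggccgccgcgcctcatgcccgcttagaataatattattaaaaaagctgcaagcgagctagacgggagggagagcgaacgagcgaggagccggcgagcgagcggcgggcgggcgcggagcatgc
Vmo1: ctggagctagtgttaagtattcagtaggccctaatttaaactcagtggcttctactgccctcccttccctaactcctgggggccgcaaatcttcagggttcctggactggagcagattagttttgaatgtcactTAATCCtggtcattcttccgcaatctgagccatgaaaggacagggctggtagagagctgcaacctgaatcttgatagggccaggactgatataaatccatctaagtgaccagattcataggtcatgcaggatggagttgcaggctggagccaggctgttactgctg

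Vmo1 held 1 match to TAATCC, starting at position -116 from the annotated start, and the third Otx2 window held 1 match on the other strand at position -211. Either orientation of this motif was in 2320 of 32851 windows of that length (7.062%). The T-box motif GGTGTGA, searched on both strands, was in none of the 7 windows of these 4 genes and in 3.979% of all windows. The motifs do not overlap each other. A match describes letters and not binding, and the absence of a match says nothing of sequence outside the windows. The windows of Gsc and Six2 held 25 and 37 CpG dinucleotides, against 16 in the shown Otx2 window and 2 in that of Vmo1, where the median of all windows was 7.

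Co-detection was not computed outside the otic class, and levels are given class by class. Levels in this paragraph and the next are CPM per total UMI unless called normalised. Otx2 was high in cluster 24, an unnamed set of 54, 17, 40 and 90 cells of cKO 1, cKO 2, control 1 and control 2, led by Ttr, the transthyretin gene of the choroid plexus, and by Rspo1, Gmnc and Folr1. Otx2 stood there at 148 and 247 CPM in cKO 1 and 2, against 191 and 92.2 CPM in control 1 and 2, so the genotypes overlapped. Otx1 stood there at 0 and 3.13 CPM in cKO 1 and 2, against 7.0 and 1.66 CPM in control 1 and 2, from at most 7 UMIs per library. Those Otx2 levels exceeded the Otx2 level of the otic class as a whole in either genotype.

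At a finer resolution, a set of 21, 12, 19 and 16 cells of cKO 1, cKO 2, control 1 and control 2 was led by Ttr and Dynlrb2. Its leading genes also included Foxj1, a regulator of multiciliated cells. Ttr was found in 2 and 2 of these cells in cKO 1 and 2, at 375 and 219 CPM. In control 1 and 2 it was found in 7 and 10 cells, at 4320 and 10514 CPM, so the cells were not alike between genotypes. Otx2 stood there at 227 and 268 CPM in cKO, against 298 and 507 CPM in control. The exact Poisson 95% intervals, which cover counting error only, were 181 to 281 and 201 to 350 in cKO, against 250 to 353 and 443 to 578 in control. Otx1 had 0 and 1 UMI there in cKO 1 and 2, against 6 and 4 UMIs in control 1 and 2. Gsc, Six2 and Vmo1 had at most 1 UMI per library there. No test was made, since these sets held fewer than 20 cells in a cKO library.

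Six2 was the member found in the most other cell classes, and it was also the one with the smallest change in otic cells. In surface or pharyngeal ectoderm-like cells it stood at 11.7 and 8.39 normalised CPM in cKO, against 14.3 and 17.6 in control, a log2 value of -0.55 that did not pass (SE 0.28, adjusted p = 0.321, edgeR), where 3.57% of genes were called in either direction. In mesenchyme-like cells it stood at 2.56 and 3.28 in cKO, against 5.95 and 7.63 in control (log2 -1.24, SE 0.35, adjusted p = 0.0649, edgeR, 5.71% of genes called). Without a filter on low counts the mesenchyme value was called, with an adjusted p of 0.0188 in edgeR.

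In placodal sensory neuron-like cells, which include the cochleovestibular ganglion lineage, Six2 stood at 3.89 and 4.32 normalised CPM in cKO, against 3.19 and 4.32 in control. Its log2 value was 0.12 (SE 0.24, adjusted p = 0.724, edgeR, 37.7% of genes called). Most of these cells lay in cluster 16 in cKO and in clusters 10, 14 and 17 in control. In epibranchial visceral sensory neuron-like cells Six2 stood at 4.24 and 3.83 in cKO, against 3.51 and 3.54 in control (log2 0.18, SE 0.25, adjusted p = 0.627, edgeR, 23.9% of genes called).

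The difference of the Six2 change between otic and placodal neuron-like cells was tested directly by an interaction of genotype and class, blocked on library. It was -1.04 on the log2 scale (SE 0.22, adjusted p = 0.0128, edgeR), in a comparison in which 18.2% of genes were called. It rested on the cell naming and on cKO 2. At clustering resolution 0.5 it was -0.43 (adjusted p = 0.451, edgeR) and without cKO 2 it was -0.73 (adjusted p = 0.115, edgeR), both chosen after seeing the data. The same difference was -0.16 against ectoderm-like cells (SE 0.26, adjusted p = 0.881, edgeR, 2.97% of genes called) and 0.52 against mesenchyme-like cells (SE 0.33, adjusted p = 0.487, edgeR, 5.7% of genes called). The fall of Six2 in otic cells was therefore not shown to differ from its values in ectoderm-like or mesenchyme-like cells.

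Otx1 was also found outside the ear, and in ectoderm-like cells it stood at 1.03 and 4.19 normalised CPM in cKO, against 4.03 and 4.07 in control. Its cKO libraries stood apart from each other, 1 below and 1 level with the controls. The log2 value of -0.67 did not pass (SE 0.58, adjusted p = 0.588, edgeR), and without cKO 1 it was 0.05. The difference between its otic and ectoderm changes was -3.03 (SE 0.62, adjusted p = 0.00594, edgeR), but without cKO 2 it was -1.63 and did not pass (adjusted p = 0.618, edgeR). Control 2 held 36 ectoderm-like cells, with 3 Otx1 UMIs.

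Otx2 in ectoderm-like cells had 11 and 22 UMIs in cKO 1 and 2, at 2.19 and 6.02 CPM, against 2 and 0 UMIs in control 1 and 2. These counts were too low for the filter, so the higher cKO values were not tested. Gsc in mesenchyme-like cells had 6 and 3 UMIs in cKO 1 and 2, against 2 and 31 in control 1 and 2, where the 31 UMIs came from 24 of 165 cells. The Gsc level there, 0.634 and 1.05 CPM in cKO and 0.552 and 7.17 CPM in control, thus rested on control 2. Vmo1 had at most 3 UMIs per library in any class or unnamed cluster other than the otic class.

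**Figure D5:**
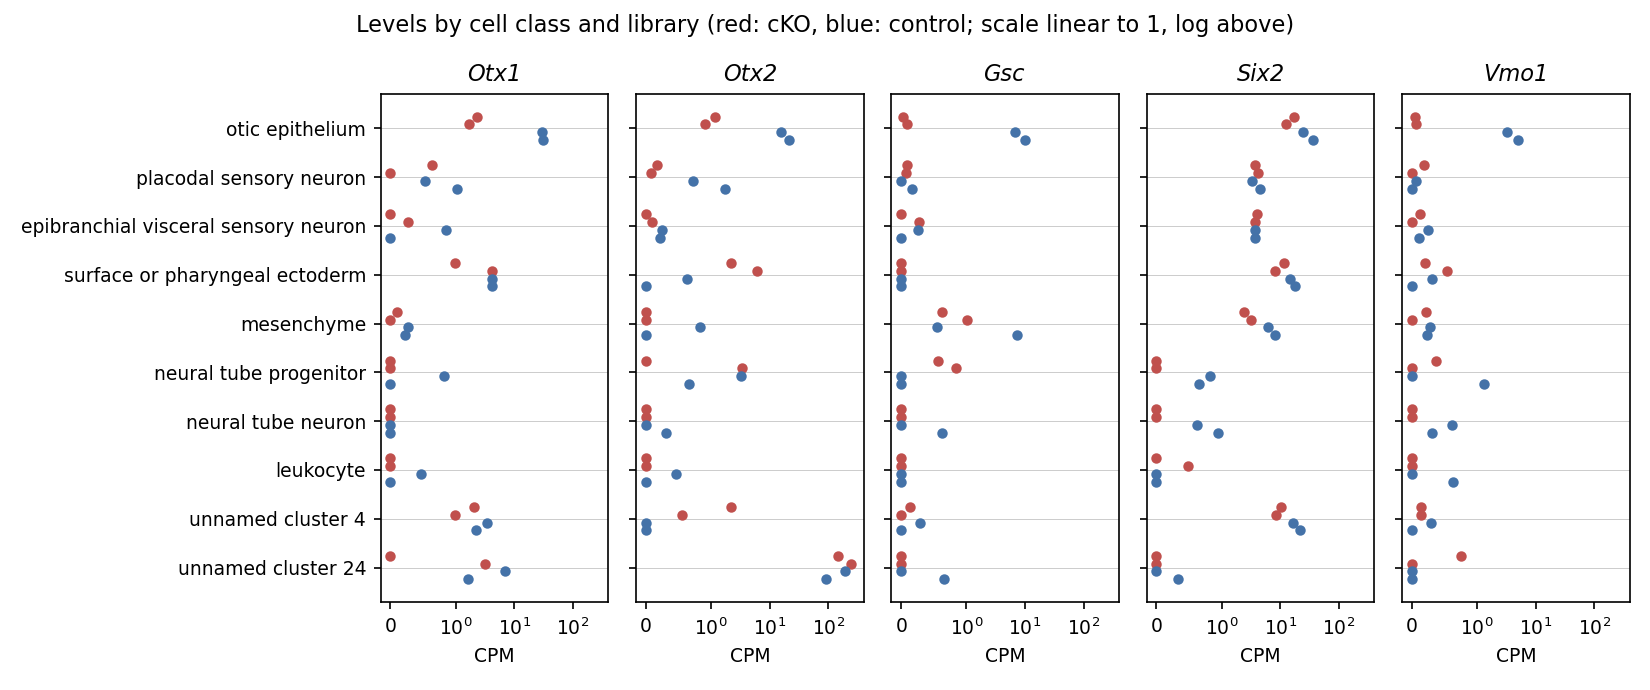
CPM per total UMI of each gene by cell class and library (cKO in red above control in blue), on a scale that is linear up to 1 and logarithmic above. Otx2 in cluster 24 lies between 92.2 and 247 in every library, whereas Gsc and Vmo1 exceed 1 in few sets outside the otic class.

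In an unnamed set, cluster 4, led by Pax1 and Nkx2-6, genes of the pharyngeal pouches, Six2 stood at 10.1 and 8.30 CPM per total UMI in cKO, against 16.7 and 21.8 in control. Control 2 held 18 of these cells, so no test was made.

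The relatives and the surrounding pathways changed unevenly in otic cells, where 19.6% of all genes tested fell and 20.9% rose. Of 14 listed homeobox relatives of the members, 7 were tested, 5 fell and 0 rose, and 4 of those 5 are members themselves. Without the members, 1 of 3 tested fell. The fifth is Six4 (log2 -0.37, SE 0.07, adjusted p = 0.00421, edgeR). Six5 had a log2 value of -0.37 (SE 0.14, adjusted p = 0.0727, edgeR).

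The hedgehog pathway, whose ligand Sonic hedgehog patterns the ventral vesicle, had 6 of 11 tested genes that fell and 0 that rose, with a median log2 value of -0.52, against -0.02 over all genes tested, of which 19.6% fell and 20.9% rose. Hhip, a hedgehog-binding inhibitor and pathway target, stood at 0.294 and 0.175 normalised CPM in cKO, against 2.51 and 2.74 in control (log2 -3.47, SE 0.27, adjusted p = 8.29e-05, edgeR). Gli1, a transcription factor and target of the pathway, stood at 1.55 and 1.90 in cKO, against 5.89 and 5.12 in control (log2 -1.65, SE 0.16, adjusted p = 2.44e-04, edgeR). The receptor gene Ptch1 (log2 -1.08, adjusted p = 7.16e-05) and the co-receptor gene Cdon (log2 -1.70, adjusted p = 6.09e-06) also fell in edgeR. The signal transducer gene Smo had a log2 value of -0.19 that did not pass (adjusted p = 0.0739, edgeR).

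Of 11 listed ventral otic partners, 6 fell and 1 rose, against 19.6% and 20.9% of all genes tested, with a median log2 value of -0.33. Gata2 (log2 -2.65, adjusted p = 9.78e-06) and Gata3 (log2 -1.26, adjusted p = 1.21e-05), zinc finger factors of the inner ear, fell in edgeR, as did Fgf10 (log2 -1.25, adjusted p = 1.78e-04) and Tbx1 (log2 -1.25, adjusted p = 5.20e-04). Lfng, a glycosyltransferase that modifies Notch, rose, with 53.7 and 64.8 normalised CPM in cKO, against 29.1 and 25.2 in control (log2 1.13, SE 0.11, adjusted p = 2.28e-04, edgeR). Pax2, Sox2 and Eya1 did not pass (adjusted p = 0.517, 0.947 and 0.113, edgeR). The name of this list does not mean co-detection with the members. Fgf10 and Lfng were found with Otx1 in control otic cells less often than independent detection would give.

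Of 9 nonsensory otic genes, 8 fell and 1 rose, against 19.6% and 20.9% of all genes tested, with a median log2 value of -1.61. Oc90 stood at 38.2 and 26.5 normalised CPM in cKO, against 318 and 471 in control (log2 -3.61, SE 0.22, adjusted p = 2.62e-05, edgeR). Wnt4, which was found with Otx2 in the same cells, stood at 1.79 and 2.01 in cKO, against 8.85 and 13.9 in control (log2 -2.55, SE 0.22, adjusted p = 1.52e-04, edgeR). Meis2, a homeobox gene, rose (log2 0.34, adjusted p = 0.0110, edgeR). Of 10 dorsal otic genes, 9 fell and 0 rose, against the same shares of all genes (19.6% and 20.9%). Their median log2 value was -0.48. Gbx2 stood at 19.3 and 30.6 in cKO, against 37.4 and 37.2 in control (log2 -0.57, SE 0.17, adjusted p = 0.0284, edgeR). Msx2 and Lmx1a were in both the nonsensory and the dorsal list and fell, so these counts overlap. Oc90, Otol1, Lmx1a, Gbx2, Dlx5, Hmx2 and Hmx3 of these lists were also among the markers that named the otic class.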

How the data were processed

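Single-cell RNA was measured in 4 droplet libraries. The deposited matrices hold raw UMI counts per gene and barcode, written by Cell Ranger 6.0.1 per the file headers, while version 3.1.0 of Cell Ranger stands in the submitters' processing notes, with FastQC 0.11.4, Seurat 4.1.0 and mm10. The deposited counts carry no normalization or cell annotation. Positions came from GENCODE M21, in which 32158 of 32285 identifiers were found.

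Cells with at least 1000 genes and at most 10% mitochondrial UMIs were kept, and the highest-scoring doublets (Scrublet) were removed at 0.8% per 1000 barcodes, 124, 148, 154 and 160 cells of cKO 1, cKO 2, control 1 and control 2. Cells were clustered with scanpy 1.11.5 and leidenalg 0.10.2 at resolution 1 on 1996 variable genes, after leaving out 4 members among the first 2000. Clusters were named from 14 marker lists, at 3 or more markers and 40% of a list, each at 10 CPM and 2 times the median cluster. Clusters led by genes of another tissue, or with a median depth under 33.3% of the median cell, stayed unnamed. This naming rule was settled after clusters were seen. Class names mean resemblance.

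Counts were summed per library and class, where every library held at least 20 cells, and compared with edgeR 4.0.16 in R 4.3.3 (filterByExpr, TMM, quasi-likelihood test, prior count 1), with Benjamini-Hochberg adjustment over all genes at 0.05, two-sided. The procedure was tested on simulated data. A permutation test of 2 against 2 libraries cannot go below p = 0.333 and was not used. Interactions were limited to genes tested in both classes, a limit set after seeing the data. Exact binomial and Poisson intervals (95%) and the limit allowed by a count of 0 (3 counts) cover counting error only. Named genes were the 5 members, Tbx2, Tbx3, the listed genes and the 5 nearest genes of each member; results for some of these are not reported here. The members and lists were chosen with earlier results of these data known. Alternatives were RLE size factors, no filter, DESeq2 1.42.0, each library left out, a replicate block, other resolutions, other cell filters and other thinning depths.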

Additional observations from a re-analysis of the deposited data

Results flagged for a closer look

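The difference between the Six2 change in otic epithelium-like cells and that in placodal sensory neuron-like cells, both cKO over control, was -1.04 on the log2 scale by the interaction test of edgeR (SE 0.22, adjusted p = 0.0128). Summed over all otic cells, Six2 was lower in both cKO libraries than in both control libraries. Its levels in the neuron-like cells overlapped between genotypes. With RLE size factors the difference was -1.04 (adjusted p = 0.0115, edgeR). It was not past the threshold at clustering resolution 0.5 (-0.43, adjusted p = 0.451, edgeR), where the neuron-like value was -0.49 and the otic value -0.88, nor without cKO 2 (-0.73, adjusted p = 0.115, edgeR).

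The difference between the Otx1 change in otic epithelium-like cells and that in surface or pharyngeal ectoderm-like cells was -3.03 (SE 0.62, adjusted p = 0.00594, edgeR). The ectoderm value rested on 5 and 15 Otx1 UMIs in cKO 1 and 2, against 13 and 3 in control 1 and 2. With RLE size factors the difference was -3.02 (adjusted p = 7.49e-04, edgeR), and without cKO 2 it was -1.63 and not past the threshold (adjusted p = 0.618, edgeR). Groups of 2 libraries were too small for a check of single outlying libraries.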

How the results depend on the processing

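All 65 recomputed values of the 5 members in otic cells kept their direction and stayed past the threshold. Gsc and Vmo1 passed the filter on low counts through their control libraries, so their direction was largely set beforehand and adds little to this count. The block on replicate number gave adjusted p-values from 1.02e-07 for Otx1 to 0.00300 for Six2 in otic cells (edgeR) and changed no call. Replicate numbers were not taken to pair these libraries. Deviations of same-numbered libraries from the group means correlated at r = 0.0391 across 15424 genes. This value cannot tell whether same-numbered libraries were prepared together. Leaving out 1 library at a time gave log2 values of -1.08 to -0.60 for Six2, -4.01 to -3.55 for Otx1, -4.17 to -3.77 for Otx2, -7.58 to -6.06 for Gsc and -5.90 to -5.31 for Vmo1, where a lone library was taken to vary like the other group.

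Over all kept cells 39 of 40 recomputed values stayed on their side, the exception being Six2, at -1.01 to -0.67 with 1 library left out. In other classes 43 of 47 did. Without a filter the Six2 value in mesenchyme-like cells was -1.24 and was called (adjusted p = 0.0188, edgeR). The Six2 value in placodal neuron-like cells, not called, was -0.49 at resolution 0.5 and -0.07 to 0.36 with 1 library left out (-0.069 without control 1). The difference of the Six2 change between otic and placodal neuron-like cells was -0.43 at resolution 0.5 and no longer called. With 1 library left out it was -1.32 to -0.73, not called without cKO 2. The same difference was -0.31 to -0.10 for Six2 against ectoderm-like cells, -0.08 to 0.68 for Six2 against mesenchyme-like cells (-0.080 without cKO 1), and -4.08 to -1.63 for Otx1 against ectoderm-like cells, not called without cKO 2. These settings for the differences were chosen after seeing the data. The Otx1 value in ectoderm-like cells was -1.68 to 0.05 (0.050 without cKO 1). The number of genes that fell in otic cells was 3024, against 1890 with DESeq2 and 1864 to 2649 with 1 library left out (the lowest without control 2). Among the lists, 1 homeobox relative rose without a filter, 1 to 2 ventral partners rose with 1 library left out, and 0 to 1 nonsensory genes did. The causes of these shifts were not tested.

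Shares of positive cells moved with depth by construction. At 5000 UMIs per cell the mean shares were 9.93% for control Otx1, 0.427% for cKO and 5.39% for control Otx2, 3.12% for control Gsc, 6.88% for cKO and 10.8% for control Six2, and 1.75% for control Vmo1. Without thinning they were 4.33% for cKO and 20.3% for control Otx1, 1.46% and 10.46% for Otx2, 0.165% and 9.16% for Gsc, 26.5% and 30.4% for Six2, and 0.208% and 6.16% for Vmo1 in cKO and control. The median co-detection ratio was 5.0, against 5.05 and 4.48 at these settings. Genotypes were not compared within otic clusters at resolution 1 or 2, since no otic cluster held 20 cells in every library. Depth limits the lowest cKO values, which rest on 1 to 7 UMIs for Gsc and Vmo1.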
